A study of Mus musculus with 4 samples.

Results

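Prostaglandins are lipid signals made from arachidonic acid. The 10 genes described here encode 5 enzymes of their synthesis and 5 of their receptors: the cyclooxygenases Ptgs1 and Ptgs2, the prostaglandin E synthases Ptges and Ptges2, the prostacyclin synthase Ptgis, the prostaglandin E receptors Ptger1 to Ptger4 and the prostacyclin receptor Ptgir. They were chosen by gene symbol among the 24527 rows of a table of read counts, and all 10 were found. The choice was made with results of these data known, because Ptgir had one of the highest ratios of spheroid to 2D monoculture.

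RNA of B16F10 mouse melanoma cells (genotype WT) was sequenced from 4 sources, with 1 library each. These were B16F10 cells from spheroids grown in hanging drops together with NIH/3T3 mouse fibroblasts, B16F10 cells from a flat (2D) co-culture with the same fibroblasts, B16F10 cells from 2D monoculture (the library titled B16-control), and a tumor grown from B16F10 cells injected under the skin of 1-year-old female C57BL/6 mice. According to the study's methods a B16F10 line that carries a green fluorescent protein was sorted away from the fibroblasts and, for the tumor, from the host cells, whereas the label of the tumor library reads snap frozen. The labels name no drug or other agent. With 1 library per condition no test across conditions could be made, no p-value is printed, and all intervals are 95% intervals that cover counting error only. The flat cultures are called co-culture and monoculture from here on.

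The libraries held between 118896900 and 150028663 reads on genes. Levels are given as CPM, reads of a gene relative to all reads of the library, scaled with TMM factors, and a gene with 0 reads lies below a limit of 3 reads, between 0.0185 and 0.0262 CPM. All 8 melanocyte markers tested (Mitf, Tyr, Tyrp1, Dct, Pmel, Mlana, Sox10 and Slc45a2) had reads in all libraries, with a summed level of 11420 CPM in spheroid cells, 15306 CPM in co-culture, 16911 CPM in monoculture and 20122 CPM in the tumor. Not every marker followed the order of the sums. Between spheroid and tumor 3 of the 8 were over 2-fold lower, against 27.6% of all genes. Sox10 (902 against 237 CPM) was over 2-fold higher, 1 of 8 against 26.8%. The tumor library also held genes of other cells: 12 myeloid markers summed to 2181 CPM there and to between 11.8 and 30.5 CPM in the cultures, and 5 skeletal muscle markers to 4599 CPM against at most 12.4 CPM. The 9 fibroblast markers summed to 2728 CPM in the tumor, 679 CPM in co-culture, 36.5 CPM in spheroid cells and 17.6 CPM in monoculture. In these bulk libraries fewer cells of a type and less RNA per cell cannot be told apart.

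In the pathway, phospholipases free arachidonic acid from membranes, a cyclooxygenase turns it into prostaglandin H2, and terminal synthases turn that into prostaglandin E2, prostacyclin and other prostanoids. Ptgs1 is the cyclooxygenase that many tissues express steadily, and Ptgs2 is the one induced by growth factors and inflammatory signals. Prostaglandin E2 acts through 4 receptors, of which those encoded by Ptger2 and Ptger4, like the prostacyclin receptor encoded by Ptgir, raise cyclic AMP, while that encoded by Ptger3 mainly lowers it and that encoded by Ptger1 signals through calcium. In tumors, prostaglandin E2 is known for acting on cancer cells, vessels and immune cells.

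RefSeq promoter windows of build GRCm38.p6, from 250 bases before to 50 bases after the transcript start, were found for 8 of the 10 genes and not for Ptgis and Ptger1. The 250 bases before the start are printed for the receptor genes that differed most between cultures, Ptgir and Ptger4, and for Ptgs2 and Ptges, which were high together in co-culture and tumor. Capitals mark matches to the motifs named after the sequences. The windows are chr7:16906240-16906489 (plus strand) for Ptgir, chr15:5244188-5244437 (minus strand) for Ptger4, chr1:150099781-150100030 (plus strand) for Ptgs2 and chr2:30903298-30903547 (minus strand) for Ptges. The Ptges window precedes the RefSeq start and lies inside the longer span of the gene in GENCODE (chr2:30889471-30929863), which has another start.
Ptgir: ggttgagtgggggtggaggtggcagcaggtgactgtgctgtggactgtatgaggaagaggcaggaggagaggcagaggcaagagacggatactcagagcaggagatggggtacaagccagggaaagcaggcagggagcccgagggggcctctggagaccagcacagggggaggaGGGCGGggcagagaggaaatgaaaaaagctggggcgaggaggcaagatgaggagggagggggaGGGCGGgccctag
Ptger4: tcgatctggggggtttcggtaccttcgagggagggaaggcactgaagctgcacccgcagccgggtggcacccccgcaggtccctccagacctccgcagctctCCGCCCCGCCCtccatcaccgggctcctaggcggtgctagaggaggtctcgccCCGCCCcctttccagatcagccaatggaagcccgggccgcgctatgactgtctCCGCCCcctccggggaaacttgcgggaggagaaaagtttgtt
Ptgs2: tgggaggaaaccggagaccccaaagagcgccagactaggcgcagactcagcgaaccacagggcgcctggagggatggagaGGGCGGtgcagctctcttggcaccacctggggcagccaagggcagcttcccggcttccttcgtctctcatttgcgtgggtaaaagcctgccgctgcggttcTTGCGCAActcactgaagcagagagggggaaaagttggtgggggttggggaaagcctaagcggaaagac
Ptges: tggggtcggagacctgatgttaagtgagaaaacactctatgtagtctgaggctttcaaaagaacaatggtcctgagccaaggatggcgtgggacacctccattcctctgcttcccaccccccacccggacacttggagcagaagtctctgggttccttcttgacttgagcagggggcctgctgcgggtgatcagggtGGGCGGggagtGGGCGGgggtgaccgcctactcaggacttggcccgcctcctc

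On both strands of the whole windows, 10 motifs were searched, and shares are given over all 32851 windows of the table. The GC box GGGCGG (or CCGCCC), present in 35.7% of all windows, was found in 5 of the 8 windows: 2 times for Ptgir and Ptges, 4 times for Ptger4 (a pair of them overlapping), 3 times for Ptger3 and once for Ptgs2. The C/EBP palindrome TTGCGCAA, in 0.183% of all windows, was found for Ptgs2 alone, 69 bases before its start. The Ptgs2 window also held, just after the annotated start, the short form of the cyclic AMP response element (TGACG, read here as CGTCA) at base 14 that overlaps the E-box CACGTG at base 17. These are shown in capitals in the stretch chr1:150100036-150100060 (plus strand, bases 6 to 30 from the start):
Ptgs2 after the start: caccactaCGTCACGTGgagtccgc

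The short form TGACG occurs in 20.8% of all windows and the E-box CACGTG, which also contains the hypoxia response core ACGTG, in 7.15%. Ptges2 was the other gene with the E-box, 77 bases before its start, and Ptger3 held the core ACGTG without it. The full cyclic AMP response element TGACGTCA (in 1.79% of all windows), the AP-1 motif TGANTCA (7.81%), the NF-kB motif (1.47%), the M-box core CATGTG (14.2%) and TATAAA (13.6%) had 0 matches in the 8 windows. A match describes letters in a window and not a bound site.

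Ptgir, the receptor for prostacyclin (chr7:16906490-16910905, plus strand, GRCm38), was the receptor with the widest spread between cultures. It had 32.0 CPM in spheroid cells (4359 reads), 2.19 CPM in co-culture (251 reads), 0.884 CPM in monoculture (126 reads) and 3.33 CPM in the tumor (540 reads). The spheroid therefore stood apart from the other 3 libraries, and the monoculture was the lowest. The spheroid's level was 36.2 times that of the monoculture, a log2 ratio of 5.18 (interval 4.92 to 5.44). This contrast chose the gene and is a description. Among 9270 genes that averaged 10 CPM or more over both libraries, ranked with 1 CPM added, Ptgir was number 3 with a log2 ratio of 4.13, between Rasd2 (4.23) and Hpse (3.97).

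Against the co-culture, which shares the fibroblasts with the spheroid, Ptgir was 14.6 times higher in spheroid cells (log2 ratio 3.87, interval 3.68 to 4.06). Against the tumor it was 9.62 times higher (log2 ratio 3.27, interval 3.14 to 3.40). These ratios reuse the spheroid level by which Ptgir was chosen and are also descriptions. The neighbours Gng8 (same strand) and Calm3 (opposite strand) share no exon bases with Ptgir. Gng8, a G protein gamma subunit, had 12.0 CPM in spheroid cells, 5.60 CPM in co-culture, 4.06 CPM in monoculture and 1.03 CPM in the tumor. Calm3, a calmodulin gene, had 744, 592, 450 and 430 CPM in the same order. Both neighbours were thus also highest in spheroid cells. Since Ptgir was chosen for its high ratio, the widths of the spreads are not compared.

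Ptger4, a prostaglandin E2 receptor that raises cyclic AMP (chr15:5206661-5244187, minus strand), was the second receptor with a higher level in spheroid cells than in monoculture. It had 4.46 CPM in spheroid cells (607 reads), 4.21 CPM in co-culture (482 reads), 0.737 CPM in monoculture (105 reads) and 3.46 CPM in the tumor (562 reads). The monoculture was the lowest library, and the other 3 lay within 1.29-fold of each other. With the correction for GC content and length the log2 ratio of spheroid to tumor went from 0.36 to 1.41, an over 2-fold difference. The spheroid's level was 6.05 times that of the monoculture (log2 ratio 2.60, interval 2.30 to 2.91), that of the co-culture 5.71 times (log2 ratio 2.51, interval 2.21 to 2.83) and that of the tumor 4.70 times (log2 ratio 2.23, interval 1.93 to 2.55). These 3 ratios share the monoculture library. Between spheroid and co-culture the log2 ratio was 0.08 (interval -0.09 to 0.26), so that any difference lay within counting error. Ptger4 overlaps Ttc33 on the opposite strand without shared exon bases.

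**Figure D1:**
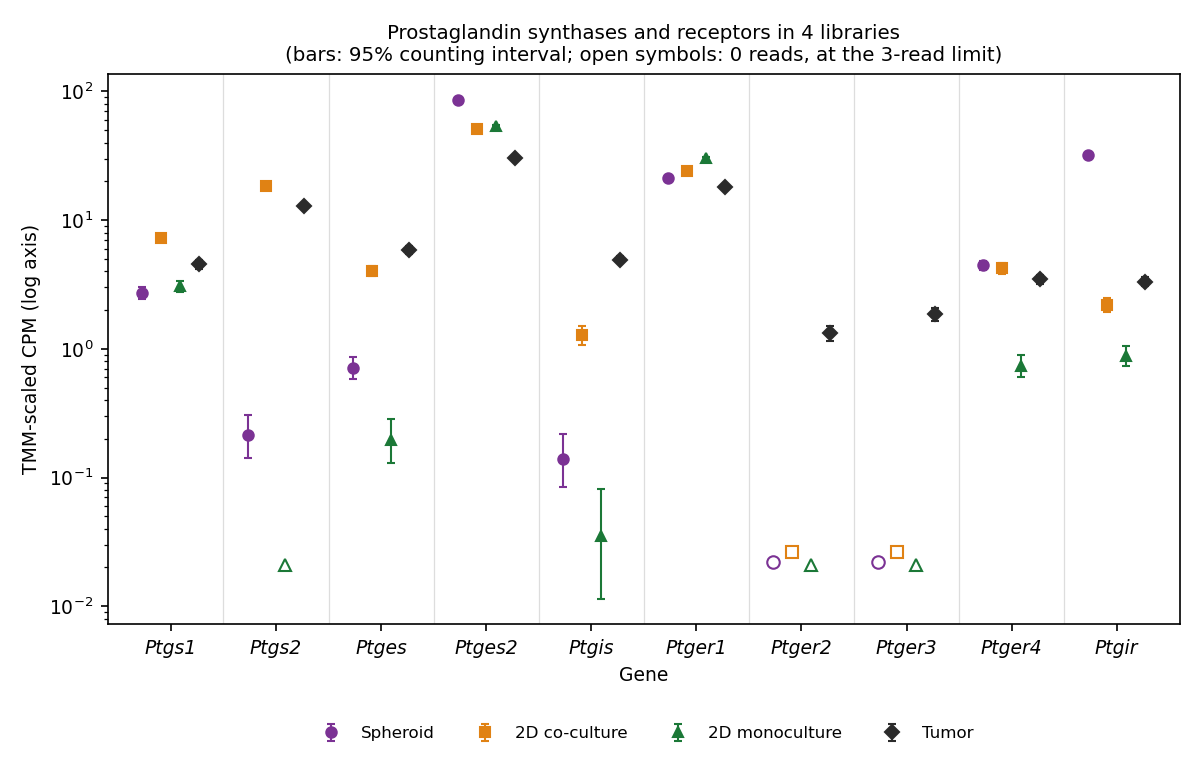
Level of each of the 10 genes in TMM-scaled CPM on a log axis, by library; bars are 95% counting intervals, and open symbols mark 0 reads, drawn at the limit of 3 reads. Ptgir stands out in spheroid cells at 32.0 CPM, Ptgs2 has 18.5 CPM in co-culture and 12.9 CPM in the tumor, and Ptger2 and Ptger3 have reads in the tumor alone.

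Ptger2 and Ptger3 were read in the tumor library alone. Ptger2 (chr14:44988195-45003820, plus strand), which raises cyclic AMP, had 0 reads in all 3 cultures and 215 reads, 1.32 CPM (interval 1.15 to 1.51), in the tumor. Ptger3 (chr3:157566892-157645888, plus strand), which lowers cyclic AMP, had 0 reads in the cultures and 302 reads, 1.86 CPM (interval 1.66 to 2.08), in the tumor. Set against the limit of 3 reads per library, the tumor's level was at least 62.9-fold higher than that of the monoculture for Ptger2 and at least 88.3-fold higher for Ptger3. Both genes were therefore not detectable at this depth in B16F10 cells of any culture, and both had a mean under 1 CPM. The myeloid, muscle and fibroblast markers given above were high in the same library, as were 6 mast cell markers (summed level 30.7 CPM, against at most 0.456 CPM in the cultures). Of 10 endothelial markers, 8 were over 2-fold higher in the tumor than in monoculture, against 14.8% of all genes. The marker Eng was over 2-fold lower (92.4 against 285 CPM), 1 of 10 against 18.2% of all genes. The part of these cells in the levels of Ptger2 and Ptger3 was not tested.

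Ptger1, the prostaglandin E2 receptor that signals through calcium (chr8:83666678-83672753, plus strand), had 21.2 CPM in spheroid cells (2884 reads), 24.2 CPM in co-culture (2765 reads), 30.1 CPM in monoculture (4290 reads) and 18.2 CPM in the tumor (2957 reads). It was the receptor with the narrowest spread, highest in monoculture and lowest in the tumor. Between spheroid and tumor its log2 ratio was 0.22 (interval 0.14 to 0.29). This order depended on the processing: total counts gave -0.14 for the same ratio, and the correction for GC content and length gave -1.75, with the log2 ratio of tumor to monoculture turned from -0.73 to 0.54. The study picked Ptger1 on these same libraries for its level in spheroid and tumor, so this ratio is a description. The levels of Ptger1 are uncertain, since the sources used here do not state whether strand was used in counting.

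Ptgs2, the inducible cyclooxygenase (chr1:150100031-150108227, plus strand), was the synthase with the widest spread. It had 0 reads in monoculture, 29 reads (0.213 CPM, interval 0.143 to 0.306) in spheroid cells, 2116 reads (18.5 CPM, interval 17.7 to 19.3) in co-culture and 2102 reads (12.9 CPM, interval 12.4 to 13.5) in the tumor. It was thus high in co-culture and the tumor and undetected in monoculture and low in spheroid cells. Against the limit of 3 reads, the co-culture was at least 878-fold higher than the monoculture and the tumor at least 615-fold higher. Between the cultures with fibroblasts, the co-culture had 86.8 times the level of the spheroid (log2 ratio of spheroid to co-culture -6.44, interval -7.02 to -5.91). The antisense gene Ptgs2os lies 67 bases from Ptgs2 and had 15 reads in co-culture, 13 in the tumor and 0 in the others.

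Ptgs1, the steadily expressed cyclooxygenase (chr2:36230426-36252272, plus strand), differed far less. It had 2.71 CPM in spheroid cells (369 reads), 7.22 CPM in co-culture (827 reads), 3.06 CPM in monoculture (436 reads) and 4.52 CPM in the tumor (734 reads). The co-culture was again the highest, at 2.36 times the monoculture (log2 ratio 1.24, interval 1.07 to 1.41), whereas the interval between spheroid and monoculture held 0 (log2 ratio -0.18, interval -0.38 to 0.03). Per kb of exon, which allows levels of different genes to be compared, Ptgs2 made up 62.2% of the summed cyclooxygenase level in co-culture and 64.8% in the tumor, but 4.82% in spheroid cells and 0% in monoculture, where the 436 reads of Ptgs1 were all the cyclooxygenase reads.

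Ptges, the inducible membrane-bound prostaglandin E synthase that is known to work with Ptgs2 (chr2:30889471-30929863, minus strand), was also high in co-culture and the tumor, but highest in the tumor. It had 0.712 CPM in spheroid cells (97 reads), 4.02 CPM in co-culture (460 reads), 0.197 CPM in monoculture (28 reads) and 5.86 CPM in the tumor (951 reads). The co-culture had 20.4 times the level of the monoculture (log2 ratio 4.35, interval 3.80 to 4.96) and the spheroid 3.62 times (log2 ratio 1.86, interval 1.24 to 2.52). The tumor's level was 8.22 times that of the spheroid.

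Ptgis, which makes prostacyclin, the ligand of the receptor encoded by Ptgir (chr2:167191805-167240604, minus strand), was also highest in the tumor. It had 0.140 CPM in spheroid cells (19 reads), 1.28 CPM in co-culture (146 reads), 0.0351 CPM in monoculture (5 reads) and 4.93 CPM in the tumor (801 reads). Against the monoculture, the log2 ratio was 5.18 in co-culture (interval 3.93 to 6.83) and 1.99 in spheroid cells (interval 0.52 to 3.77), both resting on the 5 reads of the monoculture. The library with the highest level of the prostacyclin receptor, the spheroid, thus held 2.83% of the tumor's level of the prostacyclin synthase.

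Ptges2, a second prostaglandin E synthase (chr2:32395896-32405772, plus strand), went the other way. It had 86.3 CPM in spheroid cells (11752 reads), 51.3 CPM in co-culture (5877 reads), 53.7 CPM in monoculture (7644 reads) and 30.2 CPM in the tumor (4911 reads). By these levels the spheroid was the highest and the tumor the lowest, with 2.85 times the level in spheroid cells (log2 ratio 1.51, interval 1.46 to 1.56). Less the median of genes of like GC content and length, the log2 ratio of spheroid to tumor was 0.41 and that of tumor to monoculture went from -0.83 to 0.02, so that the low place of the tumor was lost. Per kb of exon, Ptges2 held 98.9% of the summed level of both genes in spheroid cells, 90.3% in co-culture, 99.5% in monoculture and 79.1% in the tumor.

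Where Ptgs2, Ptges and Ptgis were high, so were genes of fibroblasts. Of the 9 fibroblast markers, 5 were over 2-fold higher in co-culture than in monoculture, against 3.79% of all genes. Col1a2, a collagen I chain, was the highest in co-culture at 514 CPM. Over 2-fold higher than in monoculture were also 8 in the tumor, against 14.8% of all genes, and 3 in the spheroid, against 11.2%. As a share of the tumor's level, Ptgs2 stood at 143% in co-culture and 1.64% in spheroid cells, Ptges at 68.6% and 12.2%, and Ptgis at 25.8% and 2.83%. The fibroblast markers ranged widely, with a median of 11.8% in co-culture (between 0.283% and 150%) and of 0.582% in spheroid cells (between 0.115% and 127%). Skeletal muscle markers had a median of 0.195% of the tumor's level in co-culture (highest 0.569%) and of 0.130% in spheroid cells. The highest in spheroid cells was Mylpf alone at 1.35%, against 1.64% for Ptgs2, which had 29 reads there. In B16F10 monoculture the median of the skeletal muscle markers was 0.0294% (highest 0.446%, with 339 reads of Mylpf). Myh4 had 0 reads there, as had Ptgs2, and the other muscle markers had reads. The part of NIH/3T3 cells and of reads from other libraries in these levels was not tested.

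**Figure D2:**
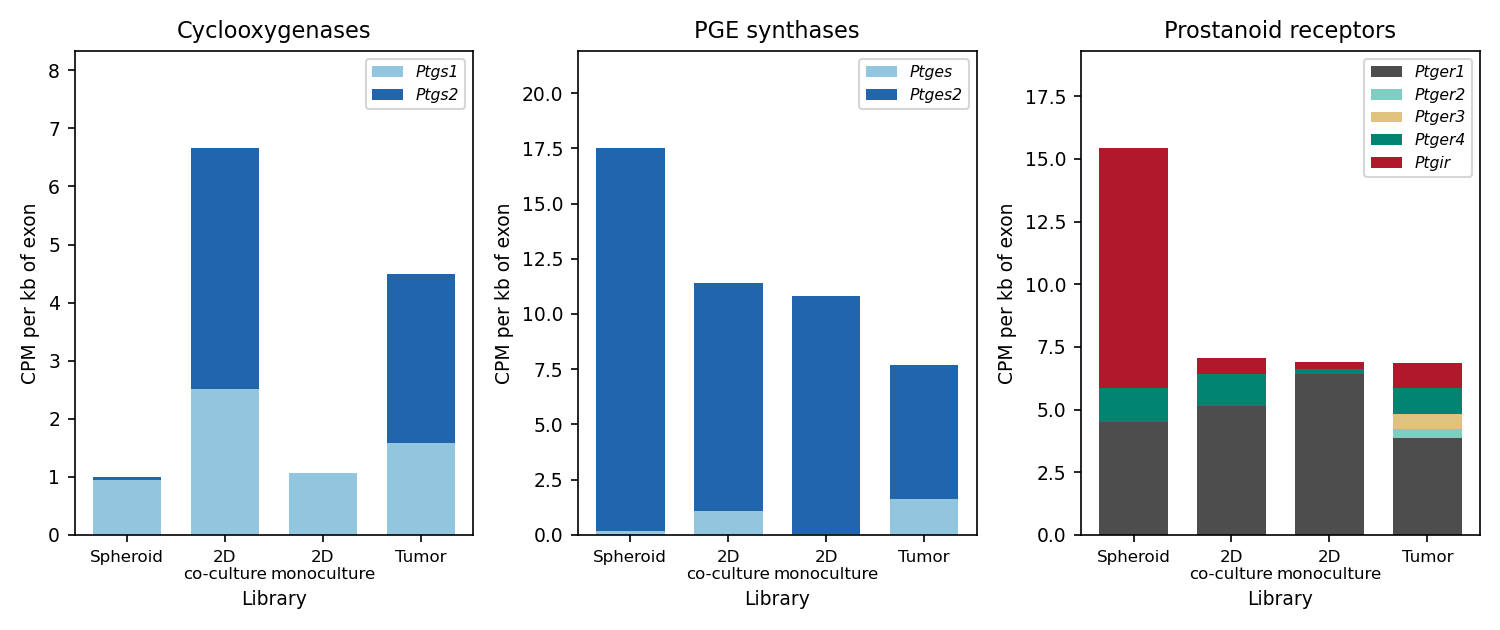
Level per kb of exon, in TMM-scaled CPM, of the cyclooxygenases, the prostaglandin E synthases and the 5 receptors, stacked by library. Ptgs2 makes up 62.2% of the cyclooxygenase bar of the co-culture and 4.82% of that of the spheroid, and Ptgir makes up 62.1% of the receptor bar of the spheroid, with the uncertain Ptger1 included. The share of Ptgir in the spheroid restates the level by which it was chosen.

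Per kb of exon the 5 receptors summed to 15.5 CPM in spheroid cells, 7.07 CPM in co-culture, 6.90 CPM in monoculture and 6.85 CPM in the tumor. Ptgir held 62.1% of this sum in spheroid cells, 9.30% in co-culture, 3.84% in monoculture and 14.6% in the tumor. With the uncertain Ptger1 left out, Ptgir held 87.8% of the sum in spheroid cells, 34.2% in co-culture, 54.5% in monoculture and 33.6% in the tumor. The shares of Ptgir in spheroid cells restate the level by which it was chosen and are descriptions. Without Ptger1, Ptgir thus came first in spheroid cells and Ptger4 in co-culture. In monoculture and the tumor the counting intervals of both genes overlapped, so that their order there is not settled. They were 0.737 to 1.05 CPM for Ptgir and 0.603 to 0.892 CPM for Ptger4 in monoculture. In the tumor they were 3.05 to 3.62 CPM for Ptgir and 3.18 to 3.76 CPM for Ptger4.

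Each comparison was then set against all genes. Of the 10 genes, 8 had a mean of at least 1 CPM over the libraries, as had 12728 genes in all, and a gene was counted as over 2-fold when its ratio with 1 CPM added to both levels was over 2. Between co-culture and monoculture, 5 of the 10 genes were over 2-fold higher (Ptgs1, Ptgs2, Ptges, Ptgis and Ptger4), against 3.79% of all genes, and 0 were lower, against 9.51%. Ptgs1 lay just past the limit, with a log2 ratio of 1.02. The median log2 ratio of the 10 genes was 0.89 and that of all genes 0.01.

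Between tumor and monoculture, 7 of the 10 genes were over 2-fold higher, against 14.8% of all genes, and 0 were lower, against 18.2%. Ptger2 and Ptger3 were counted although their means were under 1 CPM. Over all genes with a read, 12.4% were higher and 11.8% lower. Ptgs1, Ptges2 and Ptger1 were within 2-fold. Between spheroid and monoculture, Ptgir and Ptger4 were over 2-fold higher, 2 of 10 genes against 11.2% of all genes, and 0 were lower, against 17.9%. The choice of the genes used this comparison, so nothing is read from the count. Between spheroid and co-culture, 1 gene was higher (Ptgir), against 9.54% of all genes, and 3 were lower (Ptgs1, Ptgs2 and Ptges), against 8.46%. Ptgis, at 0.140 against 1.28 CPM, fell just short of the limit once 1 CPM was added.

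Between spheroid and tumor, Ptgir and Ptges2 were over 2-fold higher, against 26.8% of all genes, and 5 of 10 genes were lower (Ptgs2, Ptges, Ptgis, Ptger2 and Ptger3), against 27.6%. Over all genes with a read, 17.4% were higher and 20.6% lower. Genes richer in GC had higher ratios of spheroid to tumor (Spearman correlation 0.524 across 12666 genes, which are not independent replicates). In the class of GC content and length to which Ptger1 belongs the median log2 ratio of spheroid to tumor was 1.96, and less this median the log2 ratio of Ptger1 with 1 CPM added was -1.76. For Ptgir the class median was 1.21 and the remaining log2 ratio 1.72, and for Ptger4 they were -1.04 and 1.33. For Ptges2 they were 1.11 and 0.38, so that with this correction Ptgir and Ptger4, not Ptges2, were the genes over 2-fold higher. The comparisons share libraries with each other and are not independent. Ptgir was chosen for its ratio of spheroid to monoculture, so its place in each count with the spheroid is a description.

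**Figure D3:**
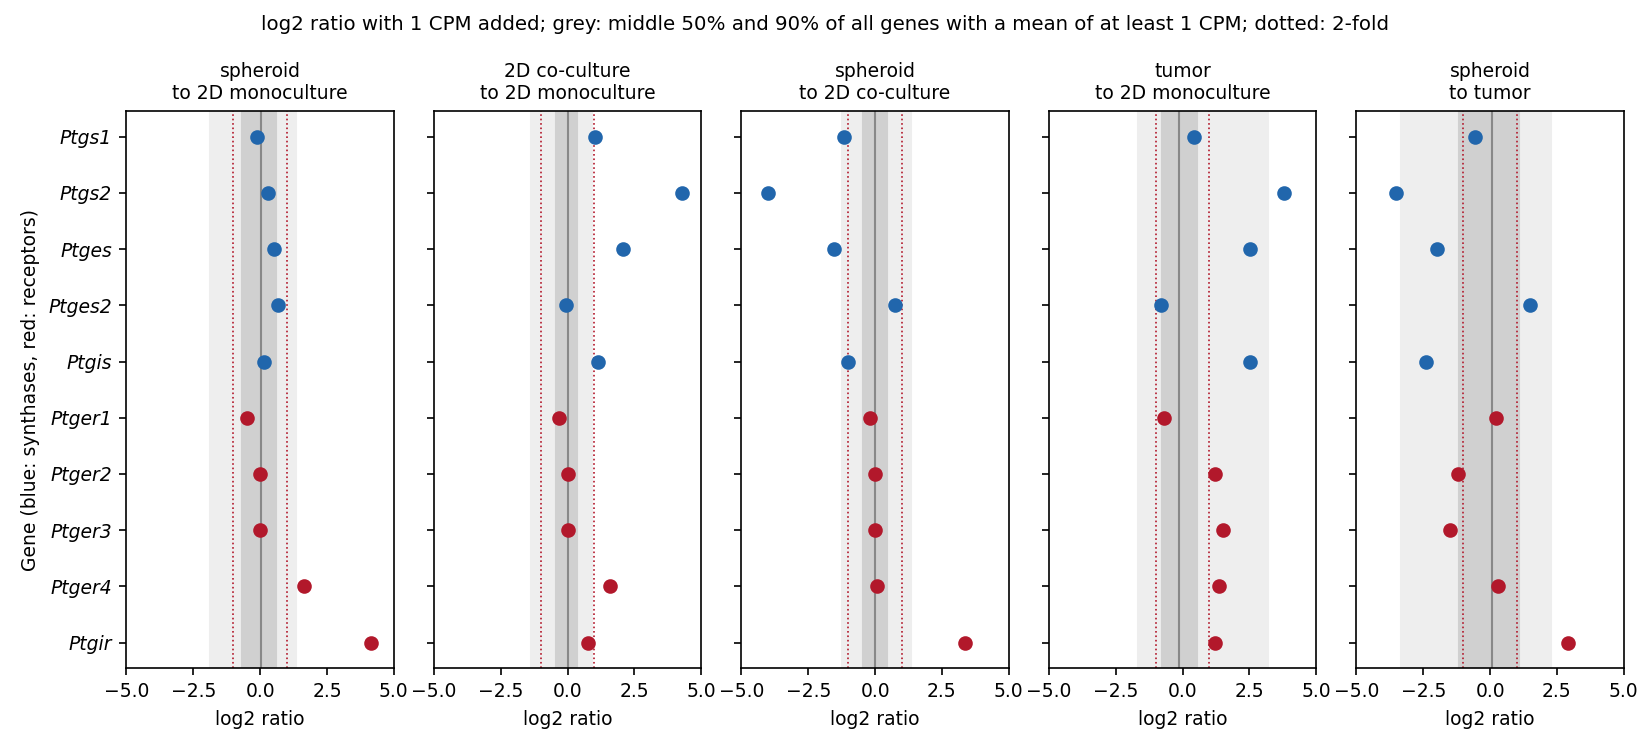
log2 ratio with 1 CPM added for each of the 10 genes (rows, synthases in blue and receptors in red) in 5 comparisons (panels); grey bands hold the middle 50% and 90% of all genes averaging 1 CPM or more, and dotted lines mark 2-fold. Ptgs2 at 4.28 lies right of the bands for co-culture to monoculture, and Ptgir at 4.13 for spheroid to monoculture.

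Upstream of the cyclooxygenases, 10 genes that release or supply arachidonic acid were examined, of which Pla2g2a had no reads. Between spheroid and monoculture, 2 of the 10 were over 2-fold higher (Pla2g6 and Pla2g15), against 11.2% of all genes, and 1 was lower (Plaa, a phospholipase A2 activating protein), against 17.9%. These shares lie near those of all genes. With the correction for GC content and length 0 of the 10 were over 2-fold different, against 9.06% of all genes higher and 11.7% lower. Pla2g6, a calcium-independent phospholipase, had 214 CPM in spheroid cells, 79.8 CPM in co-culture, 92.2 CPM in monoculture and 16.9 CPM in the tumor. Pla2g2e, a secreted phospholipase, had 169, 74.9, 101 and 24.1 CPM in the same order. Both were therefore highest in spheroid cells and lowest in the tumor. Pla2g4a, the cytosolic phospholipase known to feed prostaglandin synthesis, had 2.26 CPM in spheroid cells and 14.3 CPM in the tumor, with both flat cultures in between, and Mgll, a monoglyceride lipase that frees arachidonic acid from a lipid signal, had 84.4 CPM in the tumor and between 6.25 and 11.4 CPM in the cultures. These 2 genes were highest in the tumor.

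Of 6 other terminal synthases, 3 were over 2-fold higher in the tumor than in monoculture (Hpgds, Tbxas1 and Prxl2b, listed in the table as Fam213b), against 14.8% of all genes. Hpgds, a prostaglandin D synthase of blood cells, had 54.3 CPM in the tumor and between 1.39 and 3.31 CPM in the cultures. Tbxas1, the thromboxane synthase, had 11.9 CPM in the tumor and at most 0.0349 CPM in the cultures. Ptgds, the other prostaglandin D synthase, had 270 CPM in spheroid cells, 55.4 CPM in co-culture, 250 CPM in monoculture and 413 CPM in the tumor, and was the terminal synthase lowest in co-culture (log2 ratio to the monoculture -2.17, interval -2.21 to -2.14). Ptges3, a co-chaperone also described as a cytosolic prostaglandin E synthase, had 206, 207, 127 and 116 CPM in the order spheroid, co-culture, monoculture and tumor. Akr1b3 had no reads in any library.

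The 4 other prostanoid receptors (Ptgdr, Ptgdr2, Ptgfr and Tbxa2r) had at most 0.856 CPM in any library, that of Ptgfr in co-culture, too low for a count over 2-fold once 1 CPM is added. Without an added CPM, Ptgfr, the prostaglandin F receptor, had 98 reads in co-culture and 2 in monoculture (log2 ratio 5.93, with a lower interval bound of 4.04) and 101 in the tumor. Tbxa2r, the thromboxane receptor, had 4.85 times the level of the monoculture in the tumor (log2 ratio 2.28, interval 1.60 to 3.02). Among 6 genes of transport and breakdown, Ptgr1, which reduces prostaglandin metabolites, had 0 reads in monoculture, 0.125 CPM in spheroid cells, 6.03 CPM in co-culture and 13.6 CPM in the tumor. Slco2a1, the prostaglandin transporter, had 0.286 CPM in spheroid cells, 2.03 CPM in co-culture, 0.40 CPM in monoculture and 4.23 CPM in the tumor. These 2 of the 6 genes were over 2-fold higher in co-culture than in monoculture, against 3.79% of all genes. Hpgd, which inactivates prostaglandins, had 2.99 CPM in the tumor and at most 1 read in each culture, and Abcc4, an exporter of prostaglandins and cyclic nucleotides, had 17.5 CPM in the tumor and between 45.8 and 63.2 CPM in the cultures.

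Of 8 genes of the leukotriene arm, which uses the same arachidonic acid, 6 were over 2-fold higher in the tumor than in monoculture with 1 CPM added, against 14.8% of all genes. Alox5ap, the activator of 5-lipoxygenase, had 54.1 CPM in the tumor, 2.63 CPM in co-culture, 1.12 CPM in spheroid cells and 0.140 CPM in monoculture, so that the spheroid lay above the monoculture (log2 ratio 3.00, interval 2.32 to 3.75). Ltc4s, the leukotriene C4 synthase, had 10 reads in spheroid cells and 53 in monoculture (log2 ratio -2.34, interval -3.48 to -1.35). Lta4h, which makes leukotriene B4, was the most abundant, with between 78.0 and 164 CPM. The myeloid markers were at least 32.7 CPM each in the tumor, and their part in these levels was not tested.

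Of 12 genes known to respond to cyclic AMP, through which several of these receptors signal, 5 were over 2-fold higher in spheroid cells than in monoculture (Nr4a1, Sik1, Per1, Dusp1 and Fosb), against 11.2% of all genes, and 1 was lower (Ppargc1a), against 17.9%. With the correction for GC content and length 4 were higher (Nr4a1, Sik1, Fosb and Nr4a3), against 9.06% of all genes so corrected. Per1 and Dusp1, which were higher before it, came within 2-fold. None was lower, against 11.7%, since Ppargc1a also came within 2-fold. The uncorrected median log2 ratio of the list was 0.50, against 0.05 for all genes. Fosb, an immediate early transcription factor, had 45.1 CPM in spheroid cells, 29.1 CPM in co-culture, 3.73 CPM in monoculture and 6.64 CPM in the tumor. Per1, a clock gene, had 168, 42.6, 52.5 and 22.6 CPM in the same order, and Nr4a1, an orphan nuclear receptor, 223, 144, 59.4 and 82.5 CPM. Between co-culture and monoculture, 2 of the 12 were higher (Nr4a1 and Fosb), against 3.79% of all genes. Ppargc1a was lower, 1 of 12 against 9.51%, which is near the share of all genes. These genes also respond to growth factor and stress signals.

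**Figure D4:**
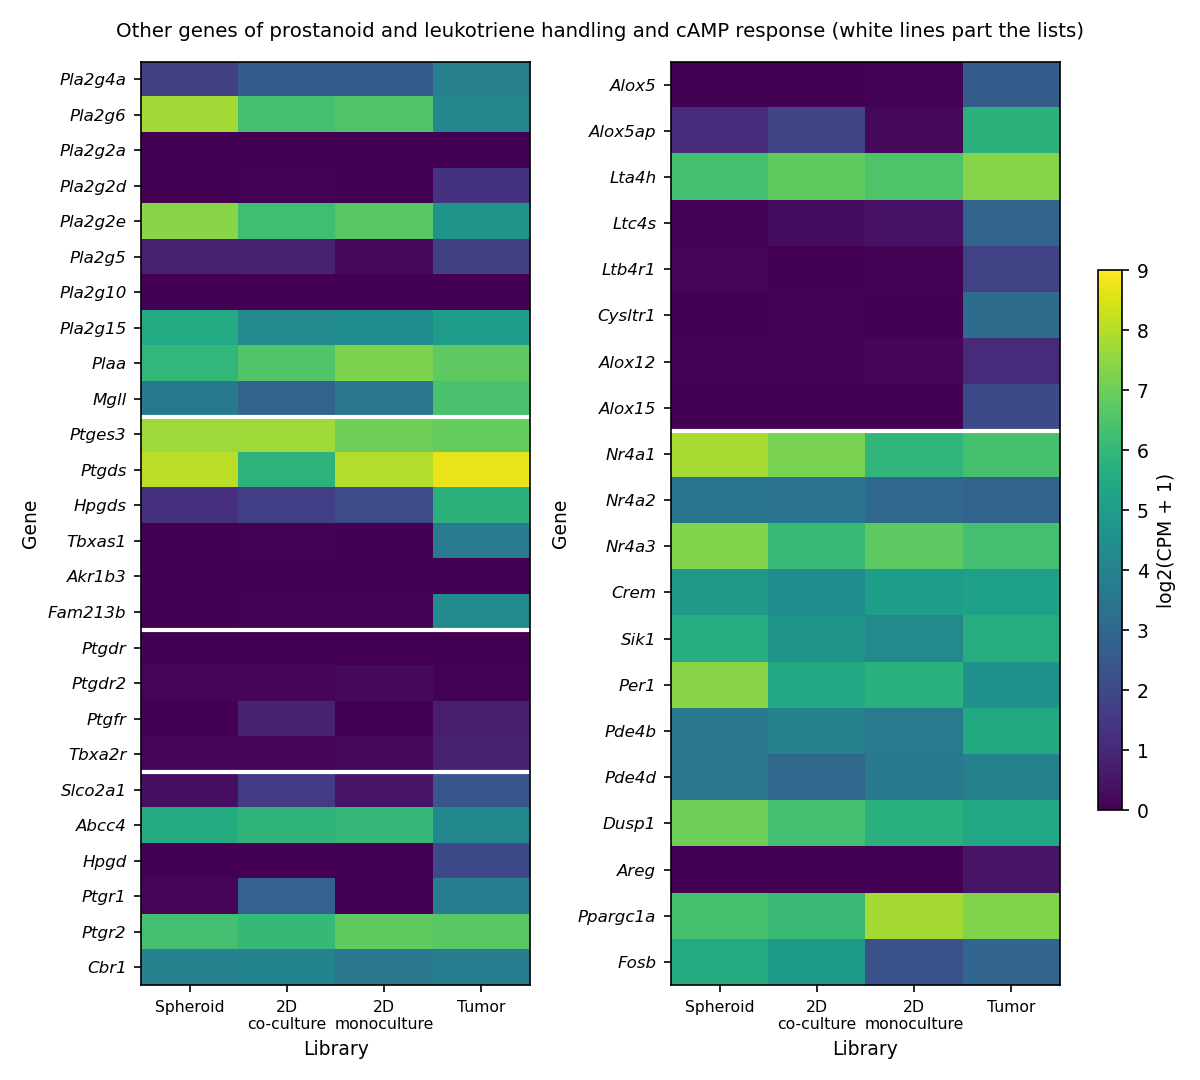
Heat map of log2(CPM + 1) in the 4 libraries for 46 other genes: arachidonate release, other terminal synthases, other receptors, transport and breakdown (left), leukotriene arm and cyclic AMP response (right), parted by white lines. Pla2g6 and Per1 are highest in spheroid cells at 214 and 168 CPM, and 6 of the 8 leukotriene genes are over 2-fold higher in the tumor than in monoculture.

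Over all 46 genes of these lists, 7 were over 2-fold higher and 2 lower between spheroid and monoculture, against 11.2% and 17.9% of all genes. Between co-culture and monoculture 5 were higher and 2 lower, against 3.79% and 9.51%. Between tumor and monoculture 18 were higher and 4 lower, against 14.8% and 18.2%. Between spheroid and co-culture 6 were higher and 2 lower, against 9.54% and 8.46%. Between spheroid and tumor 8 were higher and 17 lower, against 26.8% and 27.6%.

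The genes with the profile most like that of Ptgir were found by the distance between values of log2(CPM + 1), centred over the 4 libraries, among 9588 genes that averaged 10 CPM or more. Rasd2, a small GTP-binding protein, was nearest at a distance of 0.220, followed by Nrbp2 (0.925), Notch3 (0.974), Fos (1.03) and Macrod1 (1.03). Rasd2 had 79.7 CPM in spheroid cells, 6.18 CPM in co-culture, 3.29 CPM in monoculture and 7.56 CPM in the tumor. For Ptgs2 the nearest were Prrx1 (0.628), Fgfr1 (0.636), S100a4 (0.855), Medag (0.874) and Flnc (1.03). Prrx1, a transcription factor of mesenchymal cells, had 22.7 CPM in co-culture, 24.9 CPM in the tumor, 0.382 CPM in spheroid cells and 0.0632 CPM in monoculture. A likeness over 4 libraries is a description.

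**Figure D5:**
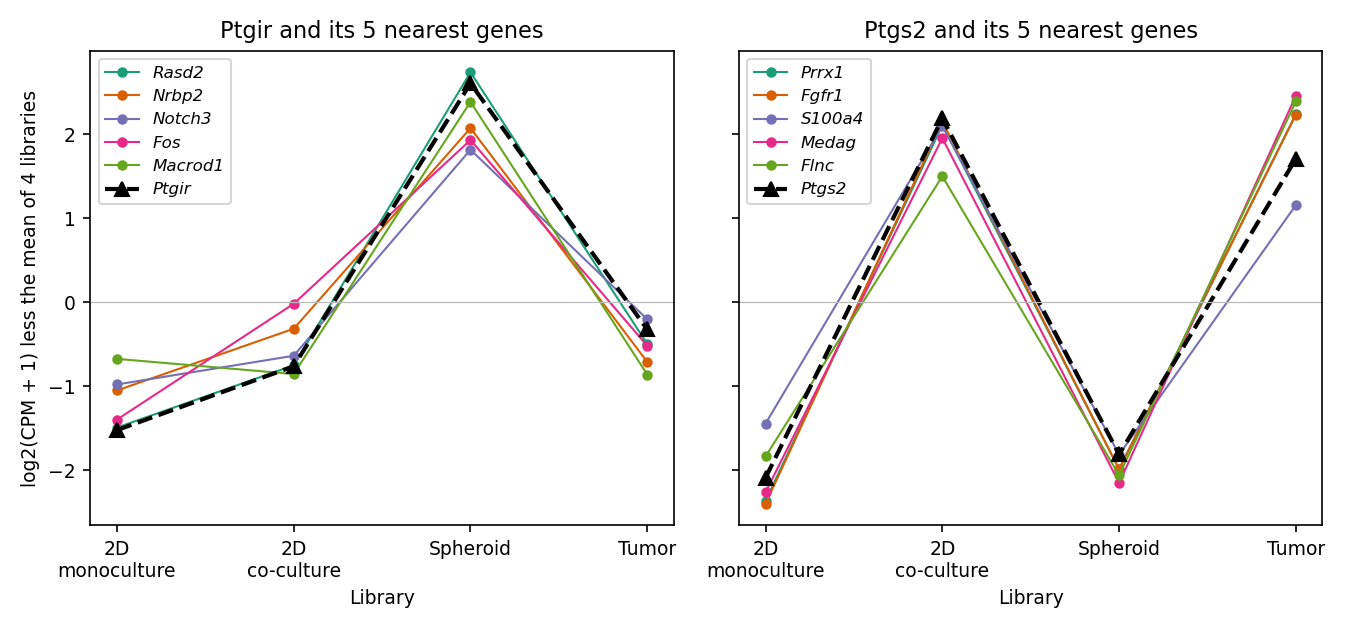
log2(CPM + 1) less its mean over the 4 libraries for Ptgir (left) and Ptgs2 (right), as dashed black lines, and for the 5 genes nearest to each; lines only join the values of 1 gene. The genes near Ptgir peak in spheroid cells, Rasd2 at 79.7 CPM, and those near Ptgs2 are high in co-culture and the tumor, Prrx1 at 22.7 and 24.9 CPM.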

How the data were processed

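Poly(A) RNA was sequenced in 4 libraries, 1 per condition. The authors deposited 1 table of raw read counts per gene, without normalization. The submitters' processing notes name Trimmomatic, STAR, featureCounts and the build mm10, without versions. The file header names refGene annotation. Whether strand was used in counting is not stated. Every column was matched to its condition by its label.

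From the counts, CPM values with TMM factors of the 4 libraries were computed with edgeR 4.0.16 (R 4.3.3). Alternatives were total counts, upper quartiles, DESeq2 1.42.0 size factors, TMM factors of the 2 libraries compared, a pseudocount of 0.1 CPM, other filters and a correction for GC content and length. Python 3.11.15, numpy 2.4.6, pandas 2.3.3, scipy 1.17.1 and matplotlib 3.10.9 were used. Levels have exact Clopper-Pearson intervals, and ratios of single genes use no pseudocount and an exact binomial interval conditional on the summed reads. Counts of genes over 2-fold and list medians use a pseudocount of 1 CPM. The ratio and its interval were tested on simulated data. No molecular identifiers are mentioned, so intervals cover counting error only.

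Gene coordinates, exon lengths, overlaps and GC content came from GENCODE M21 (GRCm38, the same assembly as mm10), and promoter windows from RefSeq (GRCm38.p6). Prxl2b was matched by its older symbol. The genes, lists and rules were chosen with earlier results of these data known. The genes named are the 10 genes, genes of the lists that were over 2-fold different in a comparison or had a mean of at least 10 CPM (the others in part), genes next to or overlapping the 10, and the 5 nearest profiles to Ptgir and to Ptgs2. Lists were arachidonate release, other terminal synthases, other prostanoid receptors, transport and breakdown, leukotriene arm, cyclic AMP response, and markers of melanocytes, myeloid cells, mast cells, platelets, endothelium, fibroblasts and skeletal muscle. The platelet markers summed to 107 CPM in the tumor, of which Pf4 held 92.0 CPM, and between 3.65 and 20.3 CPM in the cultures. Of these 6 markers, 2 were over 2-fold higher in the tumor than in 2D monoculture, against 14.8% of all genes, and 1 was lower (Itga2b), against 18.2%. The endothelial markers summed to 421 CPM in the tumor and between 304 and 407 CPM in the cultures, where Eng made up most. A result that bears on the reads of Ptger1 is not reported here.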

Additional observations from a re-analysis of the deposited data

How the results depend on the processing

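No paired analysis was possible because there was 1 library per condition, and no replicate could be left out. TMM factors of the 2 libraries compared were added after seeing the data. A count was read as moved when it changed by over 1.5 times, and the cause was not tested, except that a filter counts fewer genes. Scaling by total counts shifts every log2 ratio by -0.36 for spheroid to tumor and 0.24 for tumor to 2D monoculture, and upper quartiles shift the latter by 0.25. Other scalings (DESeq2, total, upper quartile, 2 libraries) kept every count of the 10 genes and of the 46 list genes within 1.5 times.

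With the GC and length correction, 1 of the 10 genes (Ptger1) was over 2-fold lower between spheroid and 2D monoculture in place of 0. List genes moved from 7 to 4 higher and from 2 to 1 lower in that comparison, and from 6 to 3 higher and from 2 to 1 lower between spheroid and 2D co-culture. Of all genes so corrected, 9.06% were higher and 11.7% lower between spheroid and 2D monoculture. Between spheroid and 2D co-culture these shares were 7.16% and 6.73%. With a pseudocount of 0.1 CPM, 4 of the 10 genes were higher between spheroid and 2D monoculture in place of 2, and list genes over 2-fold lower numbered 5 there and 5 between spheroid and 2D co-culture. With a mean of at least 10 CPM, which leaves out Ptgir, Ptgs2 and 6 more of the 10 genes, the count of the 10 genes was 0 higher in every comparison but spheroid to tumor, where it was 1, and 0 lower in every comparison. List genes then numbered 3 higher between 2D co-culture and 2D monoculture, 0 lower between spheroid and 2D co-culture, 5 higher between tumor and 2D monoculture and 5 lower between spheroid and tumor.

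No ratio of the 10 genes that was over 2-fold changed sign in any setting. Of 185 recomputed ratios of single genes, 6 changed sign, all of genes within 2-fold. More of them, 48 of 185, fell outside the counting interval of the ratio with TMM factors. The log2 ratio of Ptgir between spheroid and tumor was 2.91 with total counts, for example. The counting intervals therefore do not cover the choice of processing. For Ptger1 the log2 ratio of spheroid to tumor went from 0.22 to -0.14 with total counts and to -1.75 with the correction, and that of tumor to 2D monoculture from -0.73 to 0.54 with the correction. Depth limits Ptgis (5 reads in the 2D monoculture), Ptges (28 reads) and the genes with 0 reads.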
